A study of Danio rerio with 3 samples.

Results

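Genes of oxidative phosphorylation were followed through 3 ways of preparing single cells from whole zebrafish larvae, with the genes of the mitochondrial genome set against those of the nucleus. Members were chosen by symbol, not by any measured value. The 13 symbols that start with mt- were taken as mitochondrial encoded, and the 102 symbols that start with nduf, with cox4 to cox8, with uqcr, with sdha to sdhd or with atp5 as nuclear encoded. Together they made 115 of the 31467 gene identifiers in the feature table.

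Oxidative phosphorylation runs on 5 complexes in the inner mitochondrial membrane. Complexes I and II take electrons from NADH and succinate, complex III passes them to cytochrome c, and complex IV hands them to oxygen. Protons pumped along this chain drive complex V, the ATP synthase. Complex II is built from nuclear genes alone. The other complexes combine subunits made inside the mitochondrion with a larger number of subunits that are transcribed in the nucleus, translated in the cytosol and imported. The supply of messages for a single complex therefore comes from separate transcription systems in separate compartments. Muscle, sensory cells and neurons are known for a high demand on this pathway.

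All 3 libraries came from wild-type larvae at 48 h post fertilisation (hpf). For each suspension, 10 larvae were dissociated for 30 min at 37°C in an enzyme mix with 10 mM 4-thiouridine (4sU), a uridine analogue that is built into RNA made during the procedure. The dissociation library was fixed in methanol at once, the FACS library was fixed after a sort of 10 min by fluorescence-activated cell sorting, and the FACS and ice library was kept on ice for another 30 min before fixation. Both sorted suspensions also stood on ice while the sorter was set up and were washed after the sort. The time on ice below means the added 30 min alone. The gates left out only very small debris and extremes of size and granularity. Sorted cells were collected, with cooling, into medium that again held 4sU, while neither the sort nor the time on ice had it added. After 10 mM iodoacetamide, an incorporated 4sU appears as C at a reference T, so that T-to-C substitutions mark new RNA. Each group held 1 library, so there is no replicate error, no test between groups was run, and every interval is a 95% interval for counting error alone.

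The libraries held 4609 to 11043 cells and 23095410 to 61231163 unique molecular identifiers (UMIs, each standing for 1 captured RNA molecule), with medians of 2402, 3143 and 3995 UMIs per cell in the dissociation, FACS, and FACS and ice library. This order of libraries is kept below. Libraries shared 11 to 28 cell barcodes, at most 0.293% of the smaller library. Summed markers of skeletal muscle stood at 11039, 242 and 466 UMIs per 1000000 UMIs of the library (CPM), with all 5 markers lowest in the FACS library, and only the dissociation library had a table named muscle. In values summed over a whole larva, fewer cells of a type and less RNA per cell cannot be told apart. Haemoglobin genes took 6.58%, 11.2% and 6.68% of UMIs. The names of the cell types are those of the study, and they were checked against marker genes. Tables named pectoral fins, pharyngeal arch proliferating and proliferative region were left out of this check. The summed markers were highest in the table of their own name in 26 of the 36 tables checked. The exceptions were the tables named epidermis, nervous system, pharyngeal arch and muscle, and pharynx in the dissociation library. The epidermis markers were highest in the table named pharynx, and the muscle markers in the table named head muscle.

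Mitochondrial encoded messages were less abundant in both libraries of sorted cells. Their summed level was 18828, 6892 and 11302 CPM, with 95% exact Poisson intervals of 18790 to 18866, 6858 to 6926 and 11276 to 11329. This corresponds to 1.88%, 0.689% and 1.13% of all UMIs. The level after FACS was 0.366 times (0.364 to 0.368) that of the dissociation library, and the level after FACS and ice was 0.600 times (0.598 to 0.602). The level after the time on ice was 1.64 times (1.63 to 1.65) that after FACS alone. Single cells followed the same order, with a median share of 1.65%, 0.621% and 1.08% of the UMIs of a cell. Cells above 5% were found 513, 33 and 148 times, or in 4.65%, 0.716% and 1.55% of cells (Clopper-Pearson intervals 4.26% to 5.05%, 0.493% to 1.00% and 1.31% to 1.82%).

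Nuclear encoded members differed far less. Their summed level was 31241, 25147 and 25878 CPM, with counting intervals of 31193 to 31290, 25082 to 25212 and 25838 to 25918. The level after FACS was 0.805 times (0.803 to 0.807) that after dissociation, and the level after FACS and ice 0.828 times (0.827 to 0.830). UMIs of the mitochondrial members came to 0.603 times those of the nuclear members after dissociation, 0.274 times after FACS and 0.437 times after FACS and ice. Both classes were thus lower after sorting, the mitochondrial class by the larger factor. From FACS to FACS and ice, the nuclear class was at 1.03 times (1.03 to 1.03), beside 1.64 times for the mitochondrial class. The nuclear direction depended on the scale, with 0.941 times under size factors (median-of-ratios over genes) and 0.979 times without haemoglobin genes in the total.

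With UMIs pooled over cells of like depth, the order of the libraries was the same. Among cells with under 1000 UMIs, mitochondrial messages took 2.10%, 1.13% and 1.37% of UMIs. Among cells of 2500 to 5000 UMIs they took 1.88%, 0.757% and 1.2%, and above 10000 UMIs 1.96%, 0.551% and 1.05%. The dissociation library was highest and the FACS library lowest in each of the 5 depth classes examined. By the median share per cell, the order held in 4 of the 5, and cells with under 1000 UMIs had medians of 1.12%, 0.570% and 0.561%.

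Each gene of the mitochondrial genome showed this pattern, as the plot of their levels displays. Complex IV takes its catalytic core from 3 of these genes. Levels of mt-co2, the subunit that receives electrons from cytochrome c, were 6434, 2170 and 3786 CPM, so that the sorted libraries were at 0.337 times (0.334 to 0.340) and 0.589 times (0.585 to 0.592) the dissociation library. Levels of mt-co3 were 4574, 1721 and 2696 CPM, with ratios of 0.376 and 0.589. Levels of mt-co1, which holds the site of oxygen reduction, were 1066, 585 and 814 CPM, with the milder ratios of 0.549 (0.539 to 0.560) and 0.764 (0.755 to 0.773).

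**Figure D1:**
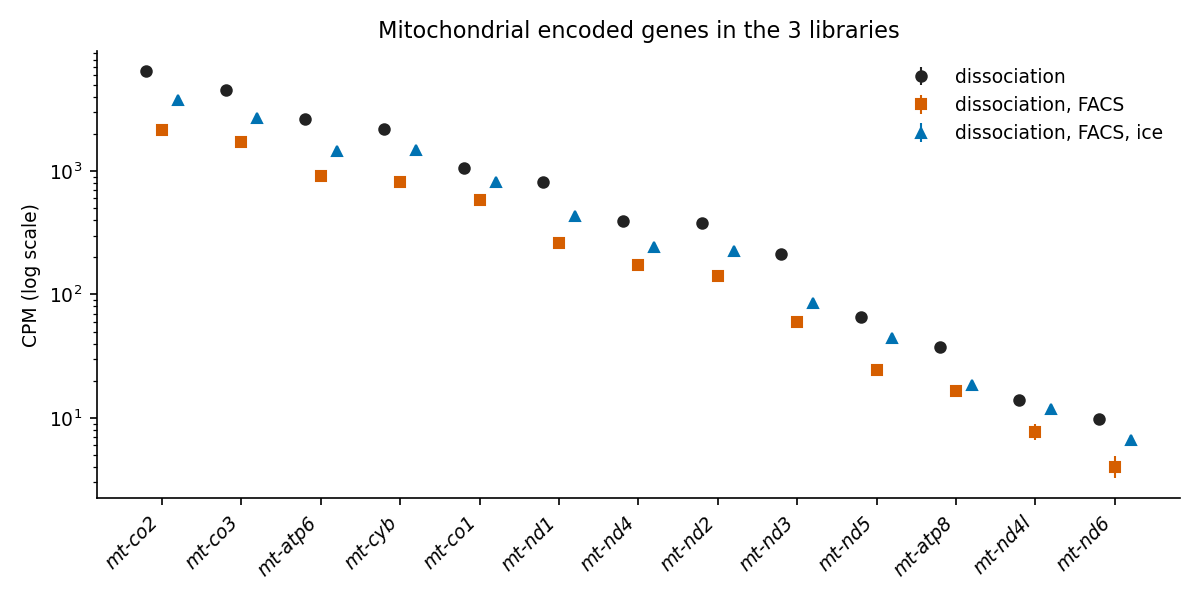
Levels of the 13 mitochondrial encoded genes in CPM (log axis), 1 marker per library with its 95% exact Poisson interval, which is hidden by the marker where it is narrower. For every gene the dissociation library is highest and the FACS library lowest, from mt-co2 (6434, 2170 and 3786 CPM) to mt-nd6 (9.88, 4.03 and 6.57 CPM).

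In complex III, mt-cyb (cytochrome b) had 2181, 819 and 1478 CPM, which gave ratios of 0.376 and 0.678. In the membrane part of ATP synthase, mt-atp6 had 2647, 911 and 1461 CPM, and mt-atp8 had 37.9, 16.4 and 18.6 CPM. Between the sorted libraries, the mt-atp8 level differed least of the class, with a ratio of 1.13 (1.01 to 1.28), and the mt-cyb level most, with 1.80 (1.78 to 1.83).

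Complex I takes 7 subunits of its membrane arm from the mitochondrial genome. Levels of mt-nd1 were 808, 260 and 431 CPM, those of mt-nd2 382, 141 and 225 CPM, and those of mt-nd4 394, 172 and 244 CPM. Their ratios after FACS lay between 0.321 for mt-nd1 and 0.437 for mt-nd4. The extremes of the class were both small subunits of this complex. Levels of mt-nd3 were 214, 60.3 and 86.0 CPM, the lowest ratios of the 12 genes that passed the minimum level (0.282, interval 0.266 to 0.298, and 0.402, interval 0.389 to 0.415). Levels of mt-nd4l were 13.9, 7.71 and 11.9 CPM, the highest ratios (0.554, interval 0.467 to 0.654, and 0.852, interval 0.767 to 0.947). Levels of mt-nd5 were 66.2, 24.5 and 44.1 CPM. The remaining gene, mt-nd6, is the protein gene of the other strand of the mitochondrial genome and stayed below the minimum, with 9.88, 4.03 and 6.57 CPM.

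The main messages of the mitochondrial pool kept similar shares while its size differed. The share of mt-co2 in the UMIs of the class was 34.2%, 31.5% and 33.5%, and that of mt-co3 was 24.3%, 25% and 23.9%. The share of mt-co1 was 5.66%, 8.49% and 7.20%, while that of mt-nd3 was 1.1%, 0.875% and 0.761%. These are shares of captured molecules in each library, not levels per length.

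For a view across genes, a member was counted when its mean over the 3 libraries was at least 10 CPM and its CPM differed at least 1.5-fold. The minimum was met by 98 members (12 mitochondrial and 86 nuclear) and by 5010 genes in all. After FACS, 12 of 12 mitochondrial members were at least 1.5-fold lower than after dissociation, beside 7.37% of all genes. After FACS and ice this held for 9 of 12, beside 6.45% of all genes, and the exceptions were mt-co1, mt-cyb and mt-nd4l. Between the sorted libraries, 8 of 12 were at least 1.5-fold higher after the time on ice, beside 6.37% of all genes, and all 12 were higher by some amount, as were 75.2% of all genes. With median-of-ratios size factors in place of CPM, the last count was 4 (4.01% of all genes), and all 12 remained lower in both libraries of sorted cells than after dissociation and higher after ice than after FACS alone. Among the 5010 genes, the ratios of the 12 ranked between percentile 2.57 and 5.21 after FACS, and between 3.31 and 13.0 after FACS and ice.

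The median gene did not stay at 1 on the CPM scale. It was at 1.05 (middle range of genes 0.923 to 1.18) after FACS, at 1.15 (0.983 to 1.33) after FACS and ice, and at 1.09 between the sorted libraries. Size factors moved all log2 ratios by -0.07, -0.19 and -0.13 in these comparisons. The nuclear members lay below that median as a group. Their median ratio was 0.796 after FACS and 0.824 after FACS and ice, and 77 of 86 and 81 of 86 lay below the median of all genes. Against the dissociation library itself, 74 and 76 of 86 were lower, beside 38.6% and 27.3% of all genes. Between the sorted libraries their median was 1.05 with 65 of 86 higher, a count close to the 75.2% of all genes. The direction depends on the scale, since with size factors the median was 0.958 and 67 of 86 were lower, beside 2507 of 5010 genes in all.

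**Figure D2:**
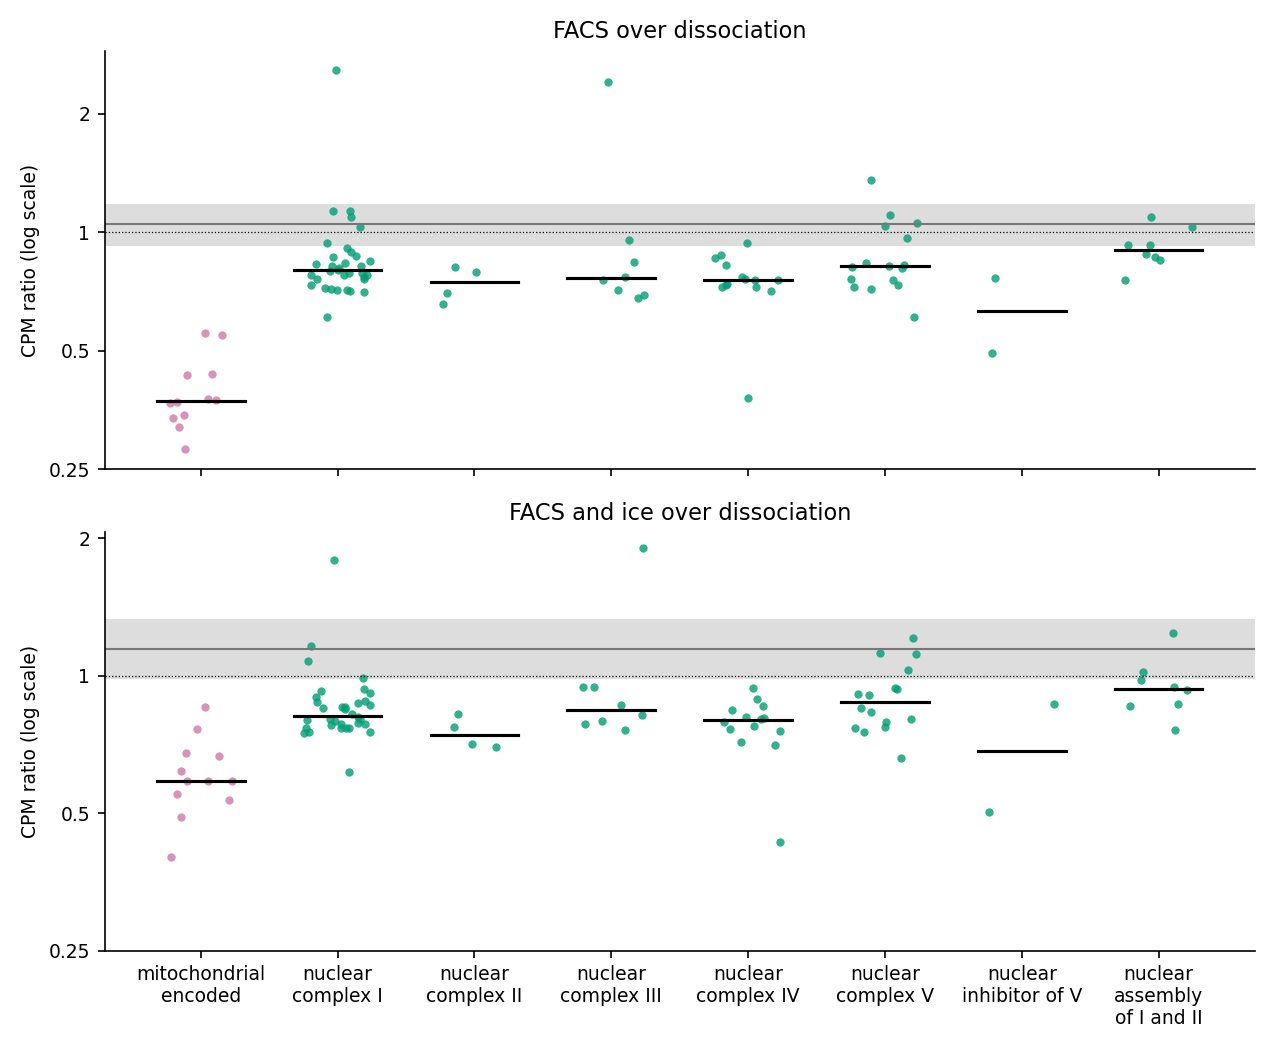
CPM ratio to the dissociation library (log axis) of the 98 members with a mean of at least 10 CPM, 1 point per gene, grouped by genome and complex, with the median of each group as a bar. The grey line and band are the median and the middle range of all 5010 genes (upper panel 1.05 and 0.923 to 1.18, lower panel 1.15 and 0.983 to 1.33), and the 12 mitochondrial members lie below the band in both panels.

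Few nuclear members crossed the 1.5-fold limit. After FACS, 2 of 86 were higher, beside 4.37% of all genes, and 5 of 86 were lower, beside 7.37%. With the time on ice, 2 were higher, beside 12.4% of all genes, and 4 were lower, beside 6.45%. No nuclear member passed between the sorted libraries, beside 6.37% higher and 1.58% lower. On the CPM scale these shares lie near or under those of all genes. With size factors, 2 were higher and 15 lower after FACS and ice, beside 5.57% and 8.88% of all genes, so that the share of lower members was then above that of all genes.

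The complexes were alike in this. Complex I, the largest with 34 members past the minimum, had median ratios of 0.802 and 0.818. Its accessory subunit ndufb8 had 439, 359 and 375 CPM, ndufa6 had 445, 369 and 357 CPM, and ndufb3 had 384, 299 and 308 CPM. The accessory subunit ndufb2 had 183, 200 and 159 CPM and a ratio of 0.795 between the sorted libraries. The lowest member of the complex was ndufv3, an accessory subunit beside the NADH-binding site, with 165, 101 and 102 CPM (ratios 0.609 and 0.616).

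Complex II had median ratios of 0.747 and 0.742 over 4 members. The iron-sulphur subunit sdhb had 130, 106 and 107 CPM. The membrane anchors were lower in both libraries of sorted cells, with 156, 110 and 111 CPM for sdhc and 126, 83.1 and 88.3 CPM for sdhdb. No part of this complex is made in the mitochondrion, and its ratios lay in the range of the other nuclear members. After FACS, they were above those of all 12 mitochondrial members (0.659 to 0.817 against 0.282 to 0.554).

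Complex III had median ratios of 0.764 and 0.843. Its hinge subunit uqcrh had 521, 371 and 397 CPM and the small subunit uqcr10 had 481, 370 and 377 CPM, while uqcrq stayed close to 1 with 445, 426 and 420 CPM. The Rieske protein uqcrfs1, with 263, 182 and 209 CPM, and the core protein uqcrc1, with 120, 82.1 and 98.8 CPM, were 1.15-fold and 1.2-fold higher after ice than after FACS.

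Complex IV had median ratios of 0.756 and 0.800, and all 14 members past the minimum were lower in both libraries of sorted cells. Levels of cox4i1 were 1086, 838 and 884 CPM, of cox6b2 1085, 788 and 831 CPM, and of cox7c 893, 841 and 766 CPM. The lowest ratios of any nuclear member past the minimum were those of ndufa4, counted with complex IV as in mammals. It had 55.9, 21.2 and 24.2 CPM, with ratios of 0.380 (0.344 to 0.418) and 0.432 (0.406 to 0.461), whereas its paralogue ndufa4l had 869, 658 and 731 CPM.

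Complex V had median ratios of 0.819 and 0.878. Of the genes for subunit c, which forms the rotating ring, atp5mc3b had 1764, 1282 and 1366 CPM, atp5mc1 had 832, 612 and 658 CPM, and atp5mc3a had 476, 390 and 444 CPM. Levels of atp5l were 1155, 964 and 981 CPM, and those of atp5f1e, which belongs to the central stalk, 881, 914 and 826 CPM. The paralogues of subunit e went apart. Levels of atp5mea were 190, 259 and 230 CPM (ratios 1.36 and 1.21), and those of atp5meb 606, 369 and 401 CPM (ratios 0.609 and 0.662).

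The inhibitor of the reverse reaction of ATP synthase also has a pair of genes. Levels of atp5if1b were 235, 116 and 118 CPM, with ratios of 0.494 (0.474 to 0.515 after FACS) and 0.503, and those of atp5if1a 347, 265 and 300 CPM, with ratios of 0.765 and 0.866. The assembly factors of complexes I and II lay nearest to 1, with median ratios of 0.903 and 0.936 over 8 members. The highest of them, ndufaf5, had 13.9, 15.2 and 17.2 CPM.

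Both nuclear members that were more than 1.5-fold higher are uncertain. Levels of uqcrb were 53.7, 129 and 103 CPM (ratios 2.40 and 1.91), and those of ndufb11 18.2, 47.2 and 32.7 CPM (ratios 2.59 and 1.79). Most reads of these genes stood under names that join them with a neighbour, 81760, 71350 and 74618 reads for uqcrb with CR786578.1 against 2831, 5767 and 8571 for uqcrb alone. For ndufb11 joined with rhoaa these were 48159, 33679 and 37016 reads, against 891, 1708 and 2348 alone. The CPM of either gene thus rests on a small part of its reads. The core subunit ndufs1 had only 9, 4 and 10 UMIs, while 3517, 3150 and 3680 reads stood under its name joined with ino80db.

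Members below the minimum included most tissue isoforms of complex IV. In mammals, cox6a2, cox7a1 and cox8b are the isoforms of heart and skeletal muscle. Levels of cox7a1 were 14.0, 3.42 and 2.60 CPM, of cox8b 9.92, 4.98 and 5.59 CPM, and of cox6a2 3.02, 1.69 and 1.98 CPM. Levels of cox5b2, a second gene for subunit 5b, were 16.2, 3.51 and 2.89 CPM. All of these were highest in the dissociation library, which was also the library with the highest muscle markers. The part of the muscle cells in this was not tested, and by cell type, reads of cox8b were highest in macrophages, as given below. The main forms cox6a1 (917, 673 and 739 CPM), cox7a2a (737, 522 and 528 CPM) and cox8a (867, 628 and 700 CPM) differed less. Levels of cox4i2, the form of subunit 4 linked to low oxygen in mammals, were 8.82, 6.45 and 8.59 CPM. Levels of cox7a3 were 138, 121 and 130 CPM, and those of cox7b 833, 635 and 632 CPM. The paralogues cox4i1l (4.15, 1.99 and 2.53 CPM) and ndufa4l2a (1.67, 0.909 and 1.57 CPM) were low in each library, and no UMI of ndufa4l2b was found in any.

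The rule left out a few genes of the pathway whose symbols are in capitals. Of these, COX5B had 973, 720 and 758 CPM and ATP5MD had 443, 518 and 451 CPM. The values of NDUFB1 (21.8, 87.2 and 34.2 CPM) and of COX7A2 (1 of many) (13.7, 51.8 and 32.2 CPM) were higher in both libraries of sorted cells.

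Further genes of the mitochondrial genome carry only a sequence number in place of a name. Of 24 such genes, ENSDARG00000080337 and ENSDARG00000082753 passed the minimum. ENSDARG00000080337 had 34533, 20045 and 34241 CPM, and ENSDARG00000082753 had 2548, 1467 and 2391 CPM. Their ratios after FACS were 0.580 (0.579 to 0.582) and 0.576 (0.569 to 0.583), higher than the 0.366 of the mitochondrial messages. The values after FACS and ice were 0.992 (0.990 to 0.994) and 0.938 (0.931 to 0.945), beside 0.600 for the messages. RNA of the same genome was thus not lower by a single factor. Their ratios between the sorted libraries were close to that of the messages, with 1.71 and 1.63 beside 1.64.

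Other genes tied to the pathway were counted by the same rule. Of 32 electron carriers and assembly factors outside the rule, 3 were at least 1.5-fold lower after FACS and 1 with the added time on ice, near the 7.37% and 6.45% of all genes. The carrier between complexes III and IV, cytochrome c (cycsb), had 540, 345 and 385 CPM, and the copper chaperone cox17 had 117, 71.7 and 68.8 CPM. None of 5 genes for the expression of mitochondrial DNA passed in either comparison, and tfam, its main packaging factor, had 55.5, 54.0 and 65.9 CPM. Of 72 genes of the mitochondrial ribosome, none was lower by 1.5-fold and 2 were higher after FACS and ice (12.4% of all genes), with median ratios of 0.903 and 1.01. Of 16 genes of the citric acid cycle, 4 were lower after FACS and 2 with the added time on ice, beside the same 7.37% and 6.45%. The lowest ratio among these lists after FACS, 0.596 for suclg1 (237, 141 and 165 CPM), lay above those of the 12 mitochondrial members.

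Of 17 genes of glycolysis, 9 were at least 1.5-fold lower after FACS (7.37% of all genes) and 9 after FACS and ice (6.45%), with median ratios of 0.627 and 0.601. The lowest were forms known from muscle, among them pgam2 (132, 1.86 and 4.15 CPM), aldoab (249, 6.71 and 13.4 CPM) and pkmb (50.6, 0.433 and 1.08 CPM). Of 6 mitochondrial carrier and channel genes (slc25a and vdac genes), 1 was at least 1.5-fold lower in both comparisons, beside 7.37% and 6.45% of all genes. This was slc25a4, the muscle form of the ADP/ATP exchanger in mammals, with 60.5, 0.693 and 1.60 CPM, whereas slc25a5 had 3805, 3747 and 4216 CPM. Summed markers of skeletal muscle were at 11039, 242 and 466 CPM in the same libraries, and their part in these values was not tested.

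The study's tables of reads per cell type allowed the comparison to be made within cell types. Reads of a gene are given per 1000000 reads of the cell type in that library (RPM), which are shares of reads and not of UMIs. Mitochondrial messages were lower after FACS in 13 of 13 cell types, with a median ratio of 0.422, from 0.343 in the pharyngeal arch to 0.647 in the lateral line, peripheral and olfactory organ. After FACS and ice they were lower in 11 of 12 cell types, with a median of 0.613, and between the sorted libraries they were higher after ice in 14 of 14, with a median of 1.46. Nuclear members had medians of 0.976, with 9 of 13 lower, and of 0.931, with 9 of 12 lower. Reads of mitochondrial over reads of nuclear members were lower in all 13 and all 12 cell types, and between the sorted libraries were higher after ice in all 14. Cell types of a suspension share a library and are not replicates of it.

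**Figure D3:**
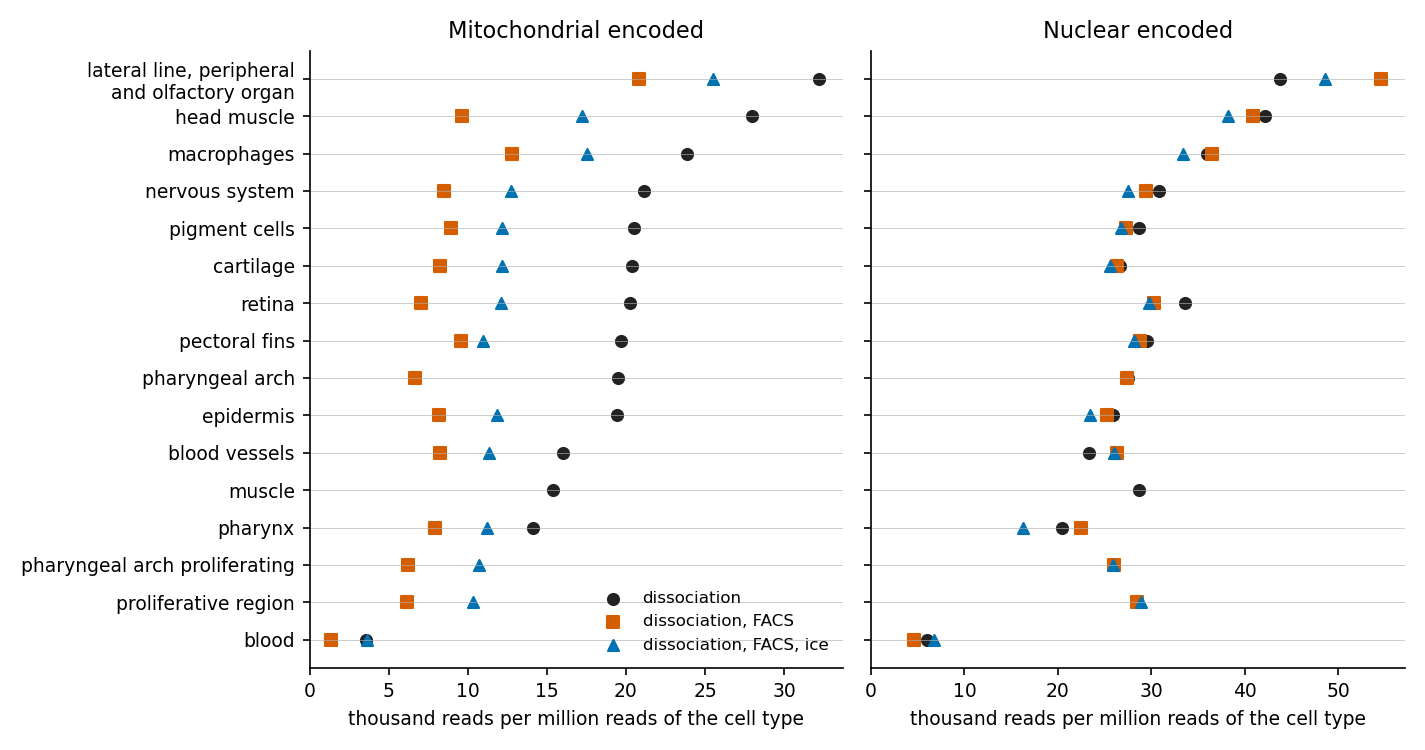
Reads of mitochondrial encoded (left) and nuclear encoded members (right) per cell type, in units of 1000 RPM, 1 marker per library and no marker where a library had no table. Mitochondrial reads are highest after dissociation in each cell type with a dissociation table but blood, with a median ratio of 0.422 after FACS, while nuclear reads overlap, with a median ratio of 0.976.

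Blood, the erythroid cells, departed from the other cell types in mitochondrial RPM. Mitochondrial messages took 3554, 1367 and 3662 RPM there, so that the FACS and ice library was at 1.03 times the dissociation library, while the other 11 cell types were at 0.557 to 0.794 times. Its ratio between the sorted libraries, 2.68, was the highest of 14. Nuclear members in blood were at 5976, 4630 and 6763 RPM. Mitochondrial over nuclear reads after FACS and ice were at 0.910 times the dissociation library in blood and 0.998 times in the pharynx. On that scale blood was not the cell type nearest to 1, and the remaining cell types lay at 0.585 to 0.789 times. Haemoglobin genes took 61.2%, 63.4% and 58.3% of the reads of this table, and blood had the lowest level of both classes in every library.

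The level of the pathway differed more between cell types than between libraries for the nuclear members. The highest table in every library was the lateral line, peripheral and olfactory organ, with 32202, 20830 and 25510 mitochondrial and 43703, 54596 and 48523 nuclear RPM. Head muscle followed with 27958, 9624 and 17201 mitochondrial and 42110, 40890 and 38184 nuclear RPM. Macrophages had 23864, 12802 and 17513 mitochondrial RPM, above head muscle in the sorted libraries. Nervous system, pigment cells, cartilage, retina, pectoral fins, pharyngeal arch and epidermis lay close to each other, between 19437 and 21128 mitochondrial RPM after dissociation. The table named muscle, present in the dissociation library only, had 15360 mitochondrial and 28678 nuclear RPM.

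The lateral line, peripheral and olfactory organ table was the highest for 8 of 13 mitochondrial genes after dissociation, with head muscle highest for the other 5, and for 13 of 13 in both libraries of sorted cells. It was also the highest for 40 of 86, 72 of 86 and 68 of 86 nuclear members. Over the tables of a library, the levels of the 2 classes went together, with Pearson's r of 0.963 over 14 tables, 0.905 over 15 and 0.920 over 14 (Spearman's rho 0.855, 0.664 and 0.609). Without blood, r was 0.927, 0.885 and 0.886. These values describe tables that share a library and a total and are no test.

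The cell type with the highest RPM differed between members and between paralogues. Reads of cox6b1 were highest in macrophages in all 3 libraries, with 512, 493 and 381 RPM against medians of 149, 109 and 83.2 over all tables, whereas its paralogue cox6b2 was highest in the lateral line, peripheral and olfactory organ. Reads of cox8b were also highest in macrophages, with 104, 34.9 and 56.9 RPM against medians of 2.65, 2.77 and 1.49. Reads of cox6a2 in macrophages were at 92.2, 34.6 and 68.0 RPM, and in at least 6 tables of each library no read of this gene was found. Reads of cox5aa were highest in the retina, with 1129, 905 and 908 RPM (head muscle had 1128 after dissociation), and those of cox5ab in the lateral line, peripheral and olfactory organ, with 813, 781 and 752. The inhibitor atp5if1b had 624, 684 and 627 RPM in the latter, against medians of 213, 157 and 138.

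Within cell types, single mitochondrial genes differed in how far they followed the class. The median ratio of mt-co2 was 0.369 after FACS and 0.586 after FACS and ice, lower in 13 of 13 and 12 of 12 cell types. Ratios of mt-co1 were 0.749 after FACS, lower in 12 of 13, and 1.04 after FACS and ice, where only 5 of 12 cell types were lower. Those of mt-nd4l were 1.02 and 1.38, with 6 of 13 and 3 of 12 cell types lower, on as few as 864 reads in the FACS library. Both genes had few reads per UMI in the dissociation library (1.99 for mt-co1 and 1.47 for mt-nd4l) against 4.22 for mt-co2.

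Reads and UMIs did not agree for every gene. The median number of reads per UMI of the nuclear members was 3.50, 8.14 and 3.22, highest in the FACS library. The 14 nuclear members with under 2.5 reads per UMI in the dissociation library had a median ratio within cell types of 1.86 after FACS and 1.49 after FACS and ice, while the other 72 were at 0.868 and 0.906. For ndufa1 the median ratio in reads within cell types was 2.59 after FACS, beside 1.1 in UMIs over the whole library. For atp5mea these were 2.32 beside 1.36. Such pairs differ in the pooling of cell types as well as in reads against UMIs. The cause of the low number of reads per UMI was not tested. Over whole libraries the classes gave like ratios in reads and in UMIs, 0.353 and 0.589 in reads for the mitochondrial members beside 0.366 and 0.600 in UMIs, and 0.851 and 0.895 for the nuclear members beside 0.805 and 0.828.

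The unnamed genes ENSDARG00000080337 and ENSDARG00000082753 also stood apart from the mitochondrial messages within cell types. Their common ratio after FACS was above that of the messages in 13 of 13 cell types (median 0.801 beside 0.422), and after FACS and ice in 12 of 12 (median 1.30 beside 0.613). For FACS and ice over FACS it was above in 7 of 14 (median 1.56 beside 1.46).

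To follow RNA made during the procedure, the T-to-C rate was taken as the mean over the reads of a gene of T-to-C substitutions per T. Over all mitochondrial reads it was 0.186%, 0.232% and 0.258%, over nuclear members 0.155%, 0.156% and 0.164%, and over all other genes 0.283%, 0.305% and 0.334%. As background, the 11 remaining types of substitution were used in the absence of unlabelled cells among the libraries analysed. T-to-C over the mean of these was 0.889, 1.16 and 1.28 for the mitochondrial members, 1.02, 1.01 and 1.1 for the nuclear members, and 2.07, 2.27 and 2.49 for all other genes. Weighted by reads, T-to-C substitutions thus stood near the mean of the other types in the pathway, and above 2 times that mean in all other genes. In the mitochondrial members, that mean was raised by G-to-A (1.16%, 1.09% and 1.12%) and C-to-T (0.756%, 0.686% and 0.657%). Of their remaining types, A-to-G stood at 0.236%, 0.272% and 0.275%, and all others at 0.0475% or lower. Being near the mean is therefore not the same as being at background. The group of all other genes includes the haemoglobin genes, whose part in its rate was not tested. By the median over genes, the order differed. That T-to-C rate was 0.207%, 0.268% and 0.336% for mitochondrial members, 0.0521%, 0.0456% and 0.0526% for nuclear members, and 0.190%, 0.223% and 0.296% for all genes.

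The mitochondrial rate was higher in both libraries of sorted cells. Its ratio to the dissociation library was 1.25 after FACS and 1.39 after FACS and ice, in both cases the highest of the 12 substitution types. The next type was at 1.16 (A-to-T) and 1.26 (A-to-C). Within cell types, the T-to-C rate of the class was higher in 13 of 13 after FACS and in 12 of 12 after FACS and ice (medians 1.28 and 1.37), and so was its A-to-G rate (medians 1.19 and 1.19). By gene, 12 of 13 mitochondrial genes had a higher T-to-C rate after FACS, beside 58.8% of all genes, with a median ratio of 1.15. After FACS and ice, 13 of 13 were higher, beside 73.1% of all genes, with a median ratio of 1.38 (range 1.11 to 2.15) beside 1.33 for all genes. The rate of A-to-G, which 4sU does not produce, was higher in 8 of 13 with a median of 1.02. Of the nuclear members, 41 of 96 were higher after FACS and 58 of 97 after FACS and ice, with medians of 0.960 and 1.06, which is below the shares of all genes.

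**Figure D4:**
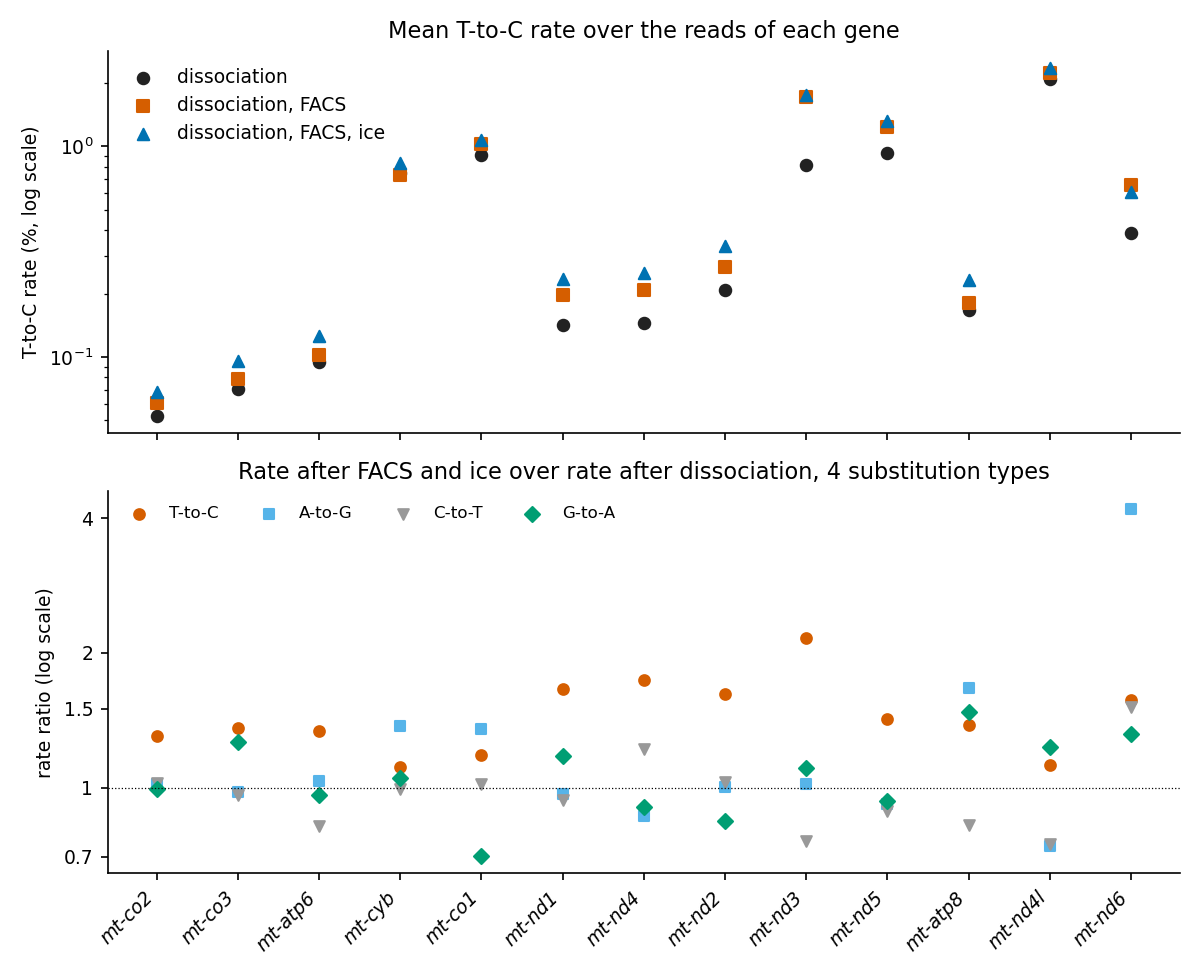
Upper panel, mean T-to-C rate over the reads of each mitochondrial encoded gene in percent (log axis), 1 marker per library. Lower panel, rate after FACS and ice over rate after dissociation for T-to-C and 3 other substitution types (log axis), where T-to-C is above 1 for all 13 genes (1.11 to 2.15) and A-to-G for 8.

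The genes differed widely in rate. That of mt-co2 was 0.0526%, 0.0605% and 0.0685%, that of mt-nd1 0.141%, 0.197% and 0.235%, and that of mt-nd3 0.815%, 1.72% and 1.76%. The change of mt-nd3 was the largest of the class and was found in each cell type with at least 250 reads in both libraries, 10 of 10 after FACS (ratios 1.74 to 2.67) and 9 of 9 after FACS and ice (1.87 to 2.32). Its A-to-G rate after FACS and ice was at 1.02 over the whole library, and within cell types was higher in 6 of 9, with a median of 1.25. Rates of mt-nd1 were higher after FACS and ice in 12 of 12 cell types, of mt-co3 in 12 of 12 and of mt-co1 in 12 of 12. For mt-co1 the A-to-G rate was higher in 12 of 12 as well, with a median ratio of 1.33 beside 1.18 for T-to-C. Rates of mt-cyb, at 0.746%, 0.731% and 0.830%, changed little, and its A-to-G ratio of 1.37 after FACS and ice was larger than its T-to-C ratio of 1.11.

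Other substitutions were frequent in these genes. In mt-co2, G-to-A stood at 2.36%, 2.37% and 2.34%, and in mt-nd3, C-to-T stood at 3.79%, 2.92% and 2.88%. A type other than T-to-C passed 1% in 9 of 13 mitochondrial genes after dissociation, in 30 of 97 nuclear members and in 35.5% of all genes. Where larvae differ from the reference genome, a fixed difference is counted as a substitution, and no filter for sequence variants is stated for these tables. The same holds for T-to-C itself, and the part of such differences in these rates was not tested. Among nuclear members, atp5f1c, the rotating central shaft of ATP synthase, had T-to-C rates of 3.13%, 3.12% and 3.09%, and ndufv3 2.44%, 2.11% and 1.96%. Neither rate was higher in the libraries of sorted cells. Rates of uqcrc2a (0.957%, 1.08% and 1.08%), sdhb (0.748%, 0.980% and 0.967%) and uqcr10 (0.919%, 1.08% and 0.966%) were the next in the FACS and ice library.

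The study also counted molecules with at least 2 T-to-C substitutions as labelled. Labelled entries per 100 UMIs were 0.751, 1.04 and 1.63 for the mitochondrial members and 0.520, 0.490 and 0.705 for the nuclear members. For all genes they were 5.47, 15.1 and 4.82, or 0.888, 1.47 and 1.35 without haemoglobin genes. Per 100 reads they were 0.194, 0.124 and 0.498 for the mitochondrial members, so that only the FACS and ice library was highest on both scales. Per gene, the median was 1.30, 1.17 and 2.37 for mitochondrial, 0.0617, 0.0747 and 0.132 for nuclear members, and 0.545, 0.460 and 0.996 for all genes, each with at least 250 UMIs. In single cells, a labelled copy was found for 8.68%, 7.95% and 13.9% of the mitochondrial genes detected in a cell (intervals 8.48% to 8.87%, 7.63% to 8.28% and 13.7% to 14.2%). The shares were 1.79%, 1.87% and 2.35% for nuclear members and 2.75%, 3.64% and 4.08% for all genes. By construction, these shares rise with how many UMIs a gene has per cell and with the reads per UMI, which differed between the libraries. Entries were summed over the cell types of the study, and UMIs over all cells. In the FACS library, entries were fewer than detections with a labelled copy, 1660 against 2165 for mitochondrial and 2846 against 3585 for nuclear members. Entries there do not cover every labelled copy, so its values per 100 UMIs, the nuclear 0.490 included, may be too low.

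**Figure D5:**
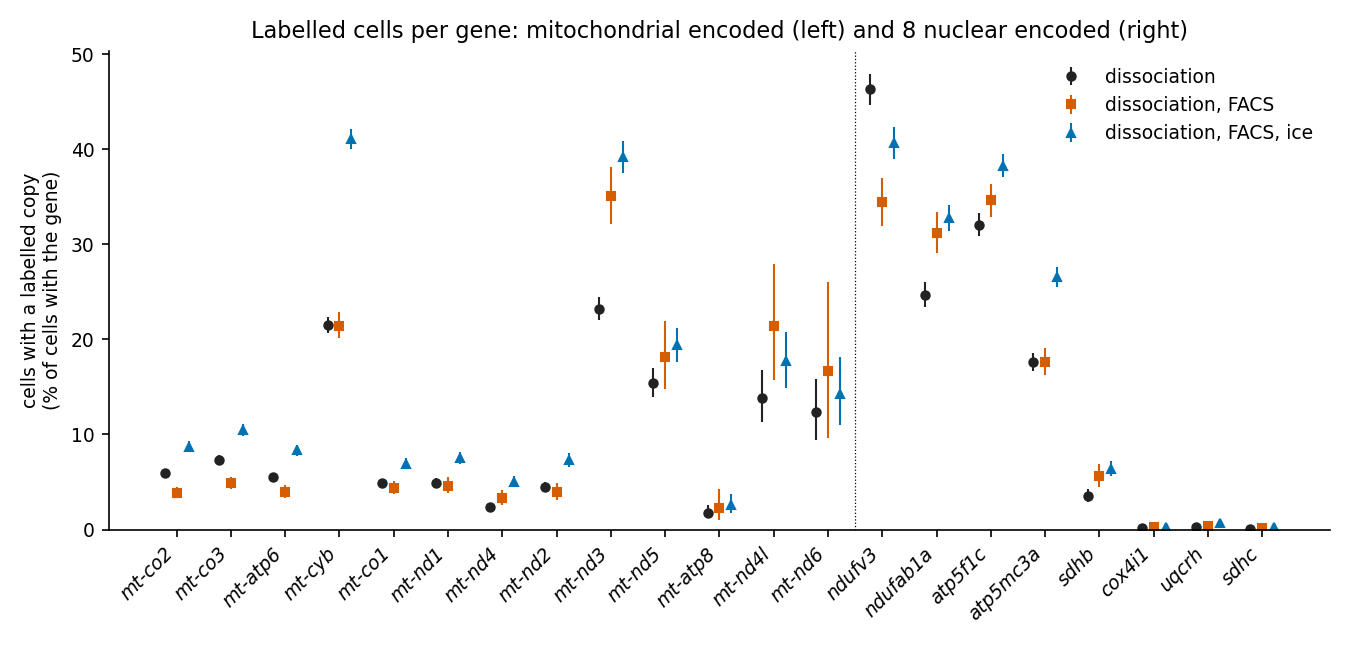
Share of the cells with a gene that held a labelled copy of it, in percent with exact Clopper-Pearson intervals for counting error, for the 13 mitochondrial encoded genes (left) and 8 nuclear encoded members (right), 1 marker per library. Shares of mt-cyb are 21.5%, 21.5% and 41.1%, and those of cox4i1, uqcrh and sdhc lie under 1% in each library.

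The labelled mitochondrial copies were spread unevenly. Labelled entries of mt-nd3 were 10.5, 18.8 and 24.8 per 100 UMIs, and those of mt-cyb 2.26, 3.36 and 5.84, while those of mt-co2 were 0.199, 0.214 and 0.351. Labelled copies of mt-cyb were found in 21.5%, 21.5% and 41.1% of the cells with the gene, and those of mt-nd3 in 23.2%, 35.1% and 39.2%. Both genes also had high T-to-C rates after dissociation. Labelled entries of mt-nd4l were 10.3, 24.2 and 16.1 per 100 UMIs, on 178 UMIs in the FACS library, and those of mt-nd5 were 8.35, 8.5 and 12.0.

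Among nuclear members with at least 250 UMIs, the same 4 genes had the most labelled entries per UMI in each library. These were ndufv3 with 24.0, 17.4 and 24.0 per 100 UMIs, ndufab1a, the mitochondrial acyl carrier protein and a part of complex I, with 12.3, 13.5 and 17.5, atp5f1c with 12.9, 10.3 and 13.9, and atp5mc3a with 5.57, 4.61 and 8.51. Further down came sdhb with 1.59, 2.45 and 3.15. Labelled copies of atp5mc3a were found in 17.6%, 17.7% and 26.6% of the cells with the gene. In contrast, cox4i1 was labelled in 0.123%, 0.283% and 0.312% of 8968, 3891 and 8016 cells, and sdhc in 0.109%, 0.127% and 0.240%.

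A figure of the study uses a limit in reads, labelled entries for at least 10% of at least 250 reads of a cell type. Few members passed it. After dissociation this held for 1 of 93 nuclear members (ndufv3, in head muscle) and none of 13 mitochondrial genes, beside 0.721% of all genes. In the FACS library it held for none of 90 and none of 11, beside 0.321%. After FACS and ice it held for none of 92 nuclear members and for 1 of 12 mitochondrial genes (mt-nd3), beside 1.15%. This gene passed in several cell types, from 10.5% in the lateral line, peripheral and olfactory organ to 12.3% in blood. Entries and reads do not count the same thing, so this percentage is no share of molecules. The study's text states the limit per UMI, which was not applied by cell type here. Over whole libraries, ndufv3, ndufab1a, atp5f1c and mt-nd3 each had more than 10 labelled entries per 100 UMIs in every library. So did mt-nd4l, which had under 250 UMIs in the FACS library. The low counts in reads therefore depend on the denominator.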

How the data were processed

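Single-cell libraries of 48 hpf zebrafish larvae, 1 per group, were made by droplet capture of 3′ ends after 4sU labelling. The authors used bcl2fastq 2.19, Cell Ranger 6.1.1 and SAMtools 1.14 with the genome build GRCz10 and a base quality of at least 20. Deposited matrices hold UMI counts per gene and cell. The authors' tables per cell type hold read counts per gene and, as a ratio per gene, each substitution as a mean over reads, with a further set of tables for molecules with at least 2 T-to-C substitutions. The cell type of each cell was not used here.

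UMI counts were summed per library and divided by the library total (CPM). Intervals are exact Poisson for sums, conditional binomial for ratios of sums and Clopper-Pearson for shares. They cover counting error only. A difference was counted at 1.5-fold with a mean of at least 10 CPM. T-to-C rates were averaged over reads. Size factors, other minimums, other weights and deeper cells were tried as alternatives. Reads under names that join several genes were kept apart. No doublet caller and no clustering were run. Scripts were tested on simulated data.

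Named genes were all mitochondrial members and, of the nuclear members, the 3 with the highest mean CPM in each complex, the 3 highest and 3 lowest ratios in each comparison, the 5 with the highest T-to-C rate and the 5 with the most labelled entries per 100 UMIs in the FACS and ice library, and the isoform groups. A gene that this rule names is not reported here. Other genes named were chosen after their values were seen. Members and gene lists were chosen with earlier results of these data known. Python 3.11.15, numpy 2.4.6, pandas 2.3.3, scipy 1.17.1 and matplotlib 3.10.9 were used.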

Additional observations from a re-analysis of the deposited data

Results flagged for a closer look

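Blood stood apart from the other cell types in mitochondrial RPM, which after FACS and ice were at 1.03 times those after dissociation (3662 against 3554). The other 11 cell types with tables in both libraries were lower, at 0.557 to 0.794 times. Relative to nuclear reads, the ratio was 0.910 in blood and 0.998 in the pharynx, and 0.585 to 0.789 in the remaining cell types. On that scale blood was thus not alone in standing apart. With 1 library per group, this difference between cell types was not tested.

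Molecules counted as labelled were also found at barcodes outside the list of cells, which the comparisons did not use. In the FACS library, 1182743 such barcodes held 52204 detections of a mitochondrial gene, of which 994 had a labelled copy (1.90%, Clopper-Pearson interval 1.79% to 2.03%, above the 0.00575% that a count of 0 allows). The share was 0.807% for nuclear members outside the list, and 7.95% for mitochondrial genes in cells. Any count passes that limit, and how many of these copies carry T-to-C substitutions without 4sU was not tested. By construction, the share with a labelled copy rises with how many UMIs a gene has at a barcode. The shares inside and outside the list are therefore not a like comparison.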

How the results depend on the processing

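With 1 library per group, no replicate could be left out, and no value carries a replicate error. The mitochondrial ratio stayed below 1 in both comparisons with the dissociation library, and above 1 between the sorted libraries, under all 5 alternatives. After FACS it was 0.385 without haemoglobin genes in the total, 0.350 with size factors, 0.411 as the mean over cells and 0.422 as the median over cell types. After FACS and ice it was 0.524 with size factors, 0.641 as the mean over cells and 0.613 as the median over cell types. Between the sorted libraries it was 1.56 without haemoglobin genes, 1.5 with size factors, 1.65 in cells of at least 1000 UMIs, 1.56 as the mean over cells and 1.46 over cell types. The nuclear ratio after FACS was 0.847 without haemoglobin genes, 0.769 with size factors, 0.918 as the mean over cells and 0.976 over cell types, and after FACS and ice 0.724, 0.874 and 0.931 for the last 3 of these. Between the sorted libraries the nuclear ratio changed direction in 4 of 5 alternatives, from 1.03 to 0.979 without haemoglobin genes, 0.941 with size factors, 0.952 as the mean over cells and 0.975 over cell types. The values over cell types are ratios of reads, and the other values are ratios of UMIs. The 14 nuclear members with under 2.5 reads per UMI in the dissociation library had medians in reads of 1.86 after FACS and 0.815 between the sorted libraries. The other 72 were at 0.868 and 1.01. By construction, a split on reads per UMI of the dissociation library tends to raise the ratio after FACS of the 14. The cause of the changes in direction was not tested. Nuclear members past 1.5-fold went from 7 to 13 after FACS and from 6 to 12 after FACS and ice at a minimum of 2 CPM, by construction with more genes. With size factors they went from 6 to 17 after FACS and ice, and from 0 to 1 between the sorted libraries.

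Values of labelling moved with the weight given to genes. The T-to-C rate of mitochondrial members was 0.207%, 0.268% and 0.336% as the median over genes and 0.265%, 0.319% and 0.362% without the gene with most reads. For nuclear members it was 0.0521%, 0.0456% and 0.0526% as the median and 0.161%, 0.161% and 0.170% without the gene with most reads. Labelled entries of mitochondrial members were 0.194, 0.124 and 0.498 per 100 reads, with medians over genes of 1.30, 1.17 and 2.37 per 100 UMIs. For nuclear members these were 0.153, 0.0603 and 0.221 per 100 reads, with medians of 0.0617, 0.0747 and 0.132. The dissociation library was thus not lowest for the mitochondrial entries per 100 reads or in the median. Entries of the FACS library were fewer than its detections with a labelled copy, so its values may be too low. Depth limits mt-nd4l and mt-nd6 most, with 178 UMIs of mt-nd4l in the FACS library.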
